A study of Drosophila melanogaster with 2 samples.

Results

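STAT92E ChIP-Seq signal was examined at a pair of immune genes of the fly gut, Drs (Drosomycin, CG10810) and PGRP-LA (CG32042). The members are the listed peaks whose chromosome, start and end equal the intervals given for drs and PGRP-LA in the study's supplementary list of 59 target intervals at 30 genes. This rule found 3 of the 1487 peaks of the deposited list (0.202%), 1 at Drs and 2 at PGRP-LA, and all of them were on chromosome arm 3L.

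The data came from 2 libraries, 1 STAT92E ChIP library and 1 Input library, both made from adult intestines of the genotype esgts>Upd and STAT92E in a W1118 background, kept at 29°C for 10 days. The esgts driver, given in the paper as esg-Gal4 with UAS-GFP and a temperature-sensitive Gal80 (tubGal80ts), drives expression in midgut progenitors. The chromatin, however, was taken from whole midguts, about 400 of them pooled, without the hindgut and Malpighian tubules. The ChIP library was precipitated with a mouse-raised antibody against residues 100 to 150 of STAT92E, and the Input library was not precipitated. Both libraries therefore carried the forced expression of the ligand Upd and of STAT92E itself, and no library of unstimulated intestines was analysed here. The sex and age of the flies are not given in the labels, and no expression was measured, so the tissue label could not be set against marker genes. With 1 library of each kind there is no replicate error. Intervals cover counting error only, at 95% and not adjusted for the number of comparisons, and no p-value between conditions is given.

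JAK/STAT signaling in the fly is started by the Upd ligands, which bind the receptor Domeless and activate the kinase Hopscotch and the transcription factor STAT92E. In the midgut the pathway drives the renewal of the epithelium after damage or infection and runs beside Imd, an immune pathway of the gut. Drs encodes an antifungal peptide that is the classical target of the Toll immune pathway in the fat body and is also made in barrier epithelia. PGRP-LA belongs to the peptidoglycan recognition proteins, the family that detects bacterial cell wall fragments. It is known as a regulator of Imd signaling in barrier epithelia. STAT92E binds paired TTC and GAA half-sites that are separated by a short spacer.

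The Drs peak spanned 240 bp, at chr3L:3368290-3368529 (dm3). It was placed 1.1 kb upstream of the gene in the list of target intervals, with 2 STAT92E binding sites within 500 bp. It held 109.4 normalized reads in the ChIP library (exact Poisson interval 89.8 to 132) and 0.727 in the Input library. The ChIP value was thus far above the input value, and the input rested on the equivalent of 1.25 reads. Such an excess is shared by every listed peak, as the lowest listed log2 ratio of ChIP over input was 4.69. The intervals do not allow for this selection of peaks. Read equivalents, and all intervals, assume that 16 steps of a deposited column make 1 read, which was not tested. ChIP over input was 150-fold, with an exact interval from 30.7-fold to 3201-fold, so only the lower limit is informative.

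The nearer PGRP-LA peak spanned 100 bp, at chr3L:9317210-9317309 (dm3). It was placed 10 kb upstream of PGRP-LA, with 1 binding site. It held 28.0 normalized ChIP reads (18.6 to 40.5) and 0.145 normalized input reads. This was the lowest ChIP value of the 3 members, and its input was the equivalent of 0.25 of a read. On that input, the fold could be limited only from below, at 10.7-fold.

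The farther PGRP-LA peak spanned 110 bp, at chr3L:9305660-9305769 (dm3). It was placed 22 kb upstream of the gene, with 3 binding sites, the most of the 3 members. It held 60.3 normalized ChIP reads (46.1 to 77.6) and 1.49 normalized input reads, the equivalent of 2.56 reads. Its input was the highest of the 3 members. ChIP over input was 40.5-fold, with an interval from 12.2-fold to 242-fold. Its lower limit was close to that of the nearer peak, and the PGRP-LA peaks were not ordered by fold. The locations and site numbers are those of the list of target intervals. Sites were not counted again and no peak sequence is shown, because no dm3 sequence was used.

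**Figure D1:**
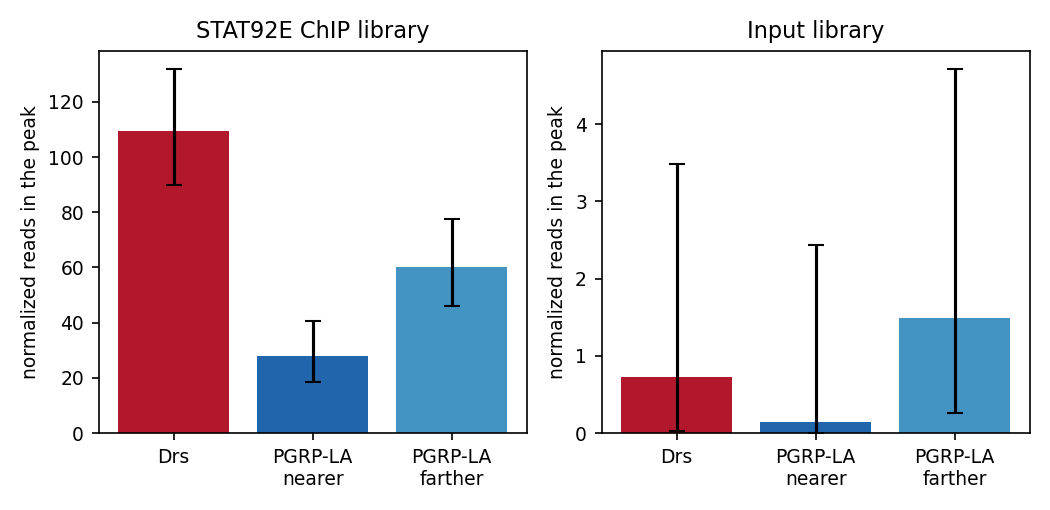
Normalized reads in the Drs peak and in the nearer and farther PGRP-LA peaks, in the STAT92E ChIP library (left) and the Input library (right), which have different vertical scales. Bars are the deposited values and error bars are exact 95% Poisson intervals; the ChIP values are 109.4, 28.0 and 60.3, and the input intervals overlap one another.

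All 3 members had an input at or under 3 reads, as did 91.1% of the whole list, and the lower limit of the fold was above 10-fold in all 3, as in 96.4% of the list. These shares are near those of the list, so neither is particular to the immune genes. The lower limit at Drs was exceeded by 13.8% of the listed peaks. The limits at the nearer and farther PGRP-LA peaks were exceeded by 93.9% and 86.8%, and the median of the list was 18.4-fold. Drs therefore stood in the upper part of the list by this measure and both PGRP-LA peaks in the lower part. When both PGRP-LA peaks were pooled (88.3 normalized ChIP reads and 1.64 normalized input reads, 54.0-fold), the fold at Drs was 2.79 times theirs. The exact interval, taken on reads rounded to whole numbers, ran from 0.291 to 197. A difference in fold between the genes was not detectable at this depth.

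The ChIP reads alone, which are more numerous, separated the peaks better. Reads per kb of peak were used for this, since the intervals differ in length. The density was 456 reads per kb at Drs (374 to 550), 280 at the nearer PGRP-LA peak (186 to 405) and 548 at the farther one (419 to 705). Drs was 1.63 times as dense as the nearer PGRP-LA peak, with an exact interval from 1.07 to 2.56. The nearer peak had 0.511 times the density of the farther peak (0.314 to 0.812). Drs and the farther PGRP-LA peak were not told apart, at a ratio of 0.831 (0.602 to 1.16). The pair of peaks assigned to PGRP-LA thus differed in ChIP density by more than the counting error, and the one more distant from the gene was the denser. This density depends on the borders of the listed intervals and takes no account of input. The input was 13.6 normalized reads per kb at the farther peak and 1.45 at the nearer one.

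Socs36E, a feedback inhibitor of the pathway and a known STAT92E target, has 5 listed peaks in its introns and served as the comparison. Their densities ran from 495 to 4058 reads per kb. The Drs peak was below 3 of them and was not told apart from the other 2, with ratios of 0.921 (0.690 to 1.23) and 0.912 (0.693 to 1.20). The Socs36E peak of rank 185 was close to the Drs peak in reads, length and listed ratio, with 109.9 ChIP reads and 0.727 input reads in 220 bp. The farther PGRP-LA peak also fell below 3 of the 5 and was not told apart from 2, at 1.11 (0.786 to 1.55) and 1.10 (0.788 to 1.52). The nearer PGRP-LA peak was below all 5 Socs36E peaks, with the highest ratio at 0.566 (0.356 to 0.874). Against the strongest Socs36E peak, the ratios were 0.112 for Drs, 0.0690 for the nearer and 0.135 for the farther PGRP-LA peak. By the listed log2 ratio, the 5 Socs36E peaks ran from 5.75 to 6.71. Drs lay within this range at 6.04, and both PGRP-LA peaks lay below it, at 5.06 (nearer) and 4.89 (farther). The farther PGRP-LA peak held 1.49 normalized input reads. The 2 Socs36E peaks not told apart from it in density held 0.655 and 0.727, and the other 3 held more than it did.

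**Figure D2:**
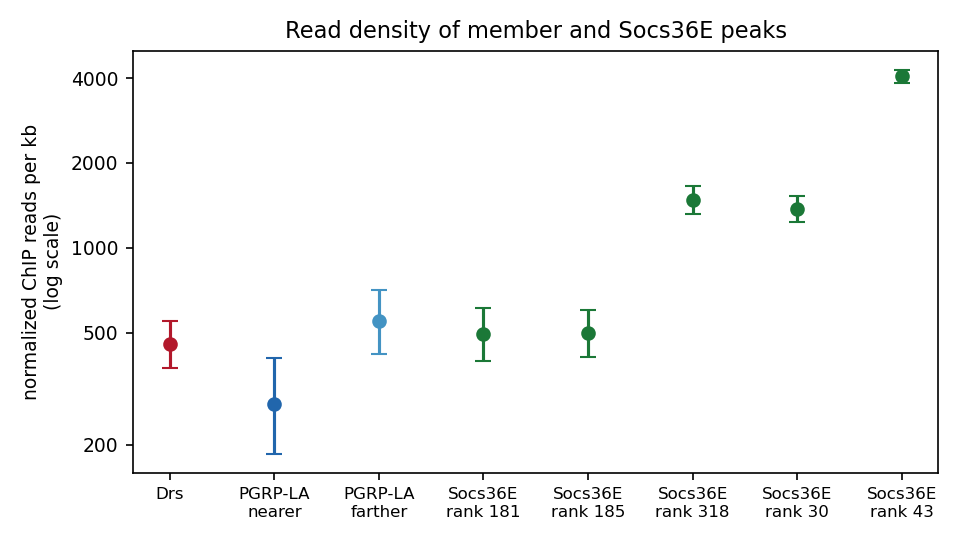
Normalized ChIP reads per kb of peak (log scale) for the 3 member peaks and the 5 Socs36E peaks, named by their rank in the list. Points are single peaks of 1 library and error bars exact 95% Poisson intervals; Drs (456) and the farther PGRP-LA peak (548) lie beside the 2 least dense Socs36E peaks, and the nearer PGRP-LA peak (280) lies below all 5.

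Among the intervals of the target list, each member was also set beside those closest to it in ChIP reads. Next below Drs came a peak of par-1, a polarity kinase gene, with 106 reads, and one of pnt, an ETS transcription factor gene of EGFR signaling, with 93.4 reads. Both were denser than Drs, which had 0.687 (0.521 to 0.906) and 0.585 (0.440 to 0.780) times their reads per kb. As these intervals were picked for similar reads, the density ratios largely follow the listed lengths. The lengths were 160 bp for par-1 and 120 bp for pnt, against 240 bp for Drs. Next above Drs came the Socs36E peak of rank 185 and a peak of chic, the profilin gene, with 110.4 reads. The density of Drs was 1.16 times that of chic (0.879 to 1.52), within the counting error.

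The nearer PGRP-LA peak had fewer ChIP reads than all but 1 of the 59 intervals. Only a peak upstream of bsg, the Basigin gene, had fewer, with 24.5 reads. Next above it were peaks of Smr, a corepressor gene, with 35.1 reads and of bsg with 39.4 reads. None of these 3 peaks was told apart from it in density. The farther PGRP-LA peak lay between a chic peak with 59.1 reads and a peak of Samuel with 60.9 reads, and was not told apart from either. The next interval above was a first-intron peak of Stat92E itself, with 67.2 reads, where the density ratio was 1.06 (0.736 to 1.52). The farther peak was 1.72 times as dense (1.18 to 2.51) as a peak of wdp with 57.5 reads. The wdp interval was 180 bp long, against 110 bp for the farther peak, so this ratio also largely follows the lengths. In all, 29 density ratios were computed, with Drs against the Socs36E peak of rank 185 counted in both sets of comparisons.

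The listed log2 ratio placed the Drs peak high in the list and both PGRP-LA peaks low. The peaks are ranked by their highest log2 ChIP/input ratio, in which a pseudocount enters. This ratio was 6.04 at Drs (rank 166), 5.06 at the nearer PGRP-LA peak (rank 1183) and 4.89 at the farther PGRP-LA peak (rank 1395), against a median of 5.35. The false discovery rate (FDR) given by the authors' peak caller takes 4 values in the list. Drs had an FDR of 0, as did 70.5% of the list. The nearer PGRP-LA peak had 0.00158, a value shared by 124 peaks, and the farther one 0.00202, the highest in the list, shared by 223 peaks. In the list of target intervals, 51 of 59 had an FDR of 0, and both PGRP-LA peaks were among the other 8.

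The 2 PGRP-LA peaks exchanged places with the measure used. By normalized ChIP reads, 14.8% of the listed peaks were above Drs, 45.7% above the farther PGRP-LA peak and 90.2% above the nearer one. By reads per kb, 19.97% were above the farther PGRP-LA peak, 33.5% above Drs and 74.8% above the nearer one. By the listed log2 ratio the farther peak came last, with 93.7% of the list above it, behind the nearer peak with 79.5% and Drs with 11.1%. The authors' −log10 of the smallest Poisson p was 100 at Drs, which is the cap of the column and is shared by 402 peaks. It was 71.7 at the farther PGRP-LA peak and 35.1 at the nearer one, against a median of 67.7. The farther PGRP-LA peak thus paired a ratio near the bottom of the list with a density in its upper part. Of the 223 peaks with its FDR, only 36 were denser. The medians over all 223 were 269 reads per kb and 0.182 normalized input reads, against 548 and 1.49 at the farther PGRP-LA peak. The input moved with this result: only 11.2% of the listed peaks had more input reads than the farther PGRP-LA peak. Its part in the low ratio was not tested.

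**Figure D3:**
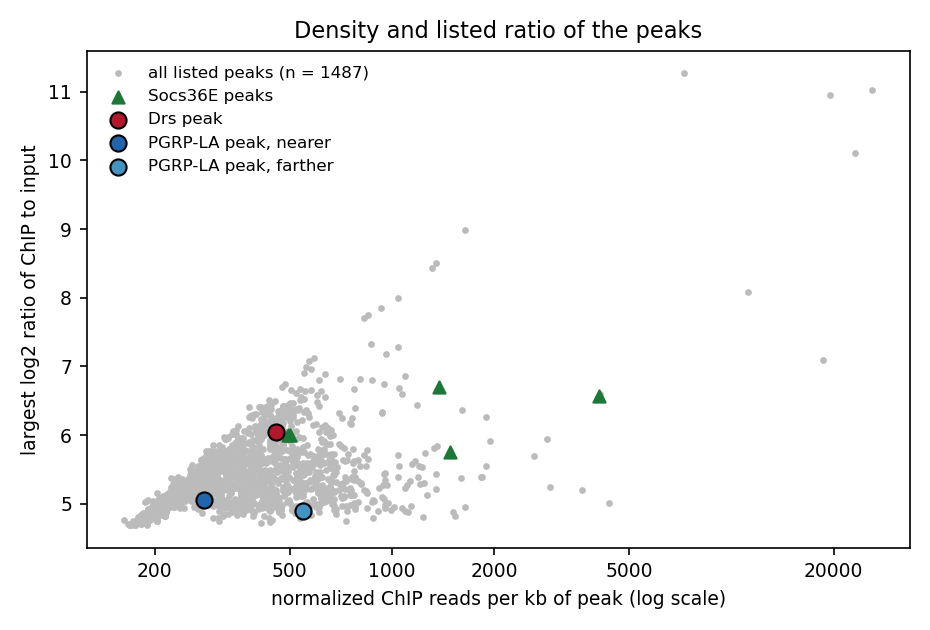
Highest listed log2 ratio, ChIP over input, against normalized ChIP reads per kb (log scale) for all 1487 listed peaks (grey), the 5 Socs36E peaks (triangles) and the 3 members (large circles). Drs (6.04) lies beside 2 of the Socs36E peaks, and the farther PGRP-LA peak (4.89) lies at the lower edge of the cloud, at a density of 548.

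The members also differed in shape. The Drs peak was long for the list, with 8.54% of the listed peaks longer than its 240 bp. The nearer PGRP-LA peak had the shortest length that occurs, 100 bp, as did 165 peaks (11.1%). In the Drs peak, the summit lay 157 bp from the first base, at 3368447, and the position of the smallest Poisson p was within 2 bp of it. The largest ratio was 62 bp away from the summit. In the nearer PGRP-LA peak the summit lay at 67 bp, at 9317277, and was 22 bp from the largest ratio. Both summits were therefore inside their intervals. In the farther PGRP-LA peak the summit lay only 2 bp from the first base, at 9305662, and the largest ratio was 83 bp away. The median of this distance over the list was 37 bp, and 4.37% of the listed peaks had one at least as large as the farther PGRP-LA peak. A summit within 2 bp of an edge occurred in 180 peaks (12.1%). The signal of the farther peak was thus highest at the border of the interval, on the side away from PGRP-LA, and the reads beyond that border are not in the list.

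**Figure D4:**
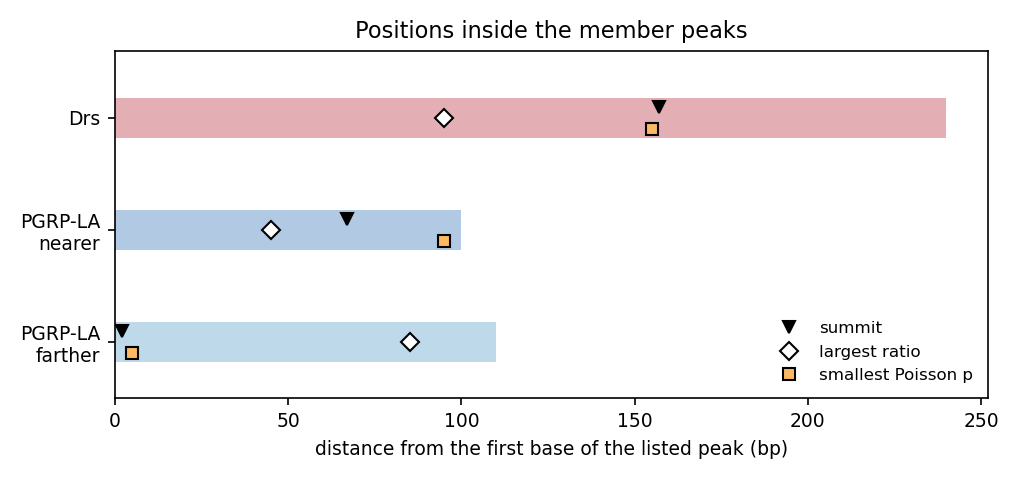
Position of the summit (triangles), of the largest ratio of ChIP to input (diamonds) and of the smallest Poisson p (squares) in each member peak, in bp from its first base; shaded bars are the listed intervals of 240, 100 and 110 bp. The summit of the farther PGRP-LA peak lies 2 bp from the edge, and those of the others lie inside.

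The Drs peak stood alone, and the PGRP-LA peaks formed a pair. The nearest listed peaks to Drs were 41.7 kb away on the side of lower positions and 63.1 kb away on the other side. On 3L, 65.8% of the 275 peaks had a closer neighbour than that. The PGRP-LA peaks were separated by 11.4 kb, and the next listed peaks lay 74.8 kb below and 100.2 kb above them. On 3L, 112 of the 275 peaks (40.7%) had another peak within 20 kb, so a pair at this distance is not unusual for the arm. No listed peak other than the members themselves lay within 20 kb of any of them.

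**Figure D5:**
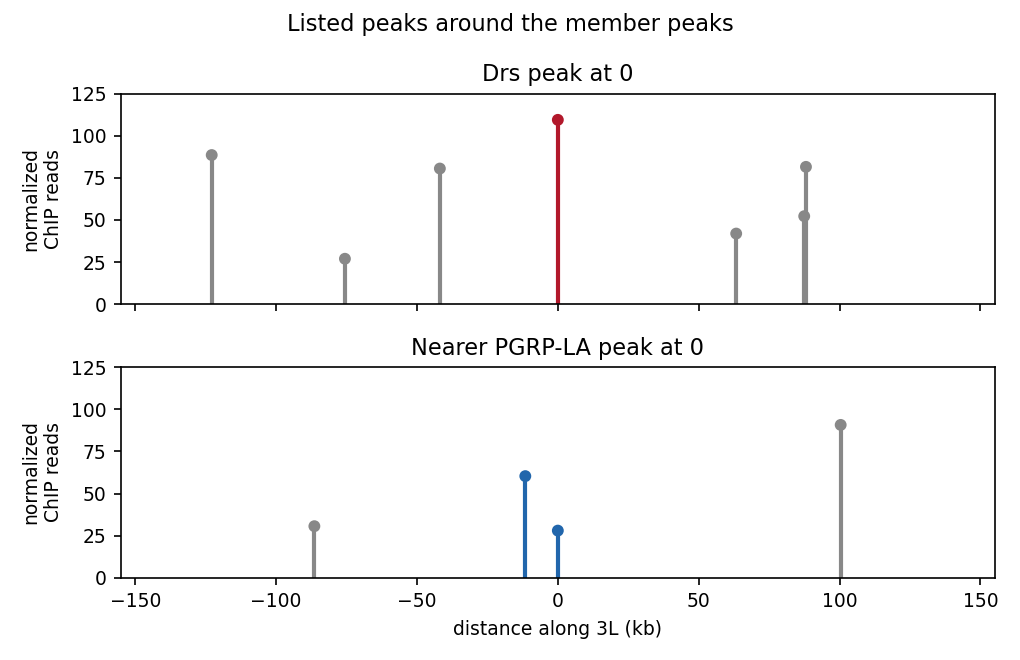
Listed peaks within 150 kb of the Drs peak (top) and of the nearer PGRP-LA peak (bottom), as normalized ChIP reads against the distance along 3L in kb; coloured stems are members and grey stems other listed peaks. The nearest other peak to Drs is 41.7 kb away, edge to edge, and the PGRP-LA peaks are 11.4 kb apart.

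Only 6 of the 59 target intervals were given as upstream of their gene, at 5 genes, and the 3 members were among them. The others were the peaks of bsg at 0.05 kb, of CG5399 at 0.2 kb and of wdp, a leucine-rich repeat protein gene, at 1.5 kb. The PGRP-LA peaks were the most distant from their gene. Drs and wdp were alike in reads, with 109.4 and 110.8 ChIP reads, and the CG5399 peak had 252. The Release 6 annotation, used for gene names and order alone, has Drs between kst, a spectrin gene, and Ythdc1. Below PGRP-LA, on the side of lower positions, it has GluRIB, a glutamate receptor gene, and then CG4477. Above PGRP-LA it has PGRP-LC, the main Imd receptor at the cell surface, and then PGRP-LF, an inhibitor of that receptor. By the distances in the target list, both PGRP-LA peaks lie at lower positions than PGRP-LA, on the GluRIB side. PGRP-LC and PGRP-LF thus lie beyond PGRP-LA as seen from the peaks. The list of peaks names no genes, so the assignment to Drs and PGRP-LA rather than to a neighbour is that of the target list.

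Other immune genes were compared by name with the target list, whose 30 genes are 0.215% of the 13962 protein-coding genes of Release 6. Of 20 antimicrobial peptide genes, only Drs was in it, and of 13 peptidoglycan recognition protein genes, only PGRP-LA. Both were chosen because they are in the target list, so these counts cannot be read as few or many. None of 7 Imd pathway genes, among them imd and Rel, and none of 8 Toll pathway genes, among them Tl and cact, was in it. The target list is a selection from the candidates, and an annotation of the build of the peaks was not used here, so the other 46 genes were not looked up among the 1428 remaining peaks. Whether Drs or PGRP-LA changed in expression was not measured in these libraries.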

How the data were processed

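About 400 midguts were cross-linked with 1% formaldehyde, and the chromatin was sheared to 200 to 400 bp. The submitters' processing notes name CASAVA 1.8, Bowtie and the build dm3. The peak caller is not given in the sources used here. Per the file headers, the authors deposited for each peak the signal of both libraries as normalized reads per peak, the largest log2 ratio, the −log10 of the smallest Poisson p, an FDR (used as a q-value) and a test statistic, a score that is a linear function of the log2 ratio. The column marked M was read as the ChIP library, after the mouse-raised antibody, and I as the Input library. All low values lay on steps of 0.0625 (ChIP) or 0.0364 (input), within 0.05 of a step. With 16 steps taken as 1 read, 1 input read weighed 0.582 of a ChIP read. This reading was not tested, parts of a read entered as parts, and intervals are approximate. Total depth is unknown.

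Folds and density ratios were given exact conditional (Clopper-Pearson) intervals, and reads exact Poisson intervals. The ratio of folds was computed from the normalized reads, and only its interval used reads rounded to whole numbers. Only the interval of the ChIP over input fold was tested on simulated data, with whole reads and not parts of a read. Members, lists and comparisons were chosen with earlier results of these data known. The text names the members, genes of 4 immune lists, Socs36E, and the target intervals nearest to a member in reads; other target intervals given as upstream (CG5399, wdp) and genes next to the members were added after their values were seen. Release 6 was used for names, and all 48 symbols were found. Python 3.11.15, numpy 2.4.6, pandas 2.3.3, scipy 1.17.1 and matplotlib 3.10.9 were used.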

Additional observations from a re-analysis of the deposited data

How the results depend on the processing

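The limits are the input, at 0.25 to 2.56 reads per member peak, and the single library of each kind. Of 33 alternative values, 17 stayed within the interval of the main value (for counts, within 1.5 times). The intervals of the folds are wide (30.7 to 3201 at Drs, and 0.291 to 197 for the ratio of folds). A fold that stayed within its interval is therefore little evidence of stability. The folds of the deposited values were 150 (Drs), 192 (nearer PGRP-LA, on 0.25 of an input read) and 40.5 (farther PGRP-LA). With the input set to the median input density of peaks on the chromosome arms, they were 209, 128 and 251, so the farther peak went from the lowest to the highest of the 3. The folds under a pseudocount of 1 normalized read were 63.9 (Drs), 25.3 (nearer PGRP-LA) and 24.6 (farther). With the input set to 3 reads, an alternative added after seeing the data, they were 62.7, 16.04 and 34.6, which also puts the farther above the nearer PGRP-LA peak. The order of the members by fold thus depends on how the input is set.

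The share of peaks with more ChIP reads than Drs was 14.8%. It became 33.5% by reads per kb, 11.1% by the listed log2 ratio and 18.7% among peaks with an FDR of 0. For the nearer PGRP-LA peak, 90.2% became 74.8% by reads per kb, 79.5% by log2 ratio, 92.2% on the chromosome arms, 92.0% on 3L and 98.1% against peaks with an FDR of 0. For the farther one, 45.7% became 19.97% by reads per kb, 93.7% by log2 ratio, 49.5% on 3L and 55.6% against peaks with an FDR of 0. Neither PGRP-LA peak is itself among the peaks with an FDR of 0. A listed FDR of 0 left 1 of the 3 members. Other peaks near a member numbered 0 within 20 kb, 1 within 50 kb and 6 within 100 kb.

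Not run were the count of STAT92E motifs, which needs a genome of this build, and whole reads at the nearer PGRP-LA peak, where the input rounds to 0. No paired analysis was possible because there was a single library of each kind.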
